A study of Homo sapiens with 6 samples.

Results

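The 10 genes described here encode transcription and splicing regulators of epithelial cells, chosen by symbol: TFCP2L1, the grainyhead genes GRHL1, GRHL2 and GRHL3, the OVOL genes OVOL1 and OVOL2, the ETS genes ELF3 and EHF, and the splicing regulator genes ESRP1 and ESRP2. All 10 were measured, each by 1 probe set that carries no other gene's symbol, among 22466 genes in all. The arrays held total RNA of SKOV3, an established human ovarian carcinoma cell line. The 3 vector control arrays carried RNA of the pLKO-Vector stable line, labelled normal in genotype, and the 3 SND1 knockdown arrays RNA of the stable line shSND1-#2, which expresses a single hairpin against SND1, a nuclease and tudor domain protein of transcription and splicing. Neither line was treated further, and both carry the vector backbone. No source used here says whether each line is a clone or a pool, and the name of knockdown array 1 (shSND1-#2-5-1) holds an additional number with no stated meaning.

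Grainyhead factors bind and open enhancers of junction, protease and differentiation genes in surface epithelia, and TFCP2L1 belongs to the same protein superfamily, with known roles in kidney collecting ducts and in naive pluripotent cells. OVOL zinc finger proteins repress ZEB1 and other mesenchymal genes, while ELF3 and EHF are ETS factors restricted largely to epithelia. ESRP1 and ESRP2 are RNA-binding proteins that set the epithelial splice forms of transcripts such as those of FGFR2 and CD44. ZEB1, SNAI1 and SNAI2 are repressors of epithelial genes that bind E-boxes of the sequence CACCTG, and ESRP1 and OVOL2 are among the genes that ZEB1 is known to repress.

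Of the 10 members, RefSeq promoter windows (GRCh38.p14) were at hand for 5, GRHL3 and EHF with 2 start sites each. The 250 bases before the start are shown for the member that rose most, for a grainyhead gene that rose, and for the ETS genes that moved in opposite directions. Each is printed 5′ to 3′ on the gene's strand, and capitals mark matches on either strand to the E-box CACCTG (or CAGGTG), to the grainyhead motif AACCGGTT, or to the ETS motif CGGAAGT (or ACTTCCG); none of the matches overlap.
TFCP2L1, chr2:121285203-121285452, minus strand: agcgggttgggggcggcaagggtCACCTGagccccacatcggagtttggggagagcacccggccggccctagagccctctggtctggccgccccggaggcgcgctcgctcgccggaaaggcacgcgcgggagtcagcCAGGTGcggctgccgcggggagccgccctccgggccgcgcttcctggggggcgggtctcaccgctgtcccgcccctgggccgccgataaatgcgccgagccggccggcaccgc
GRHL1, chr2:9951443-9951692, plus strand: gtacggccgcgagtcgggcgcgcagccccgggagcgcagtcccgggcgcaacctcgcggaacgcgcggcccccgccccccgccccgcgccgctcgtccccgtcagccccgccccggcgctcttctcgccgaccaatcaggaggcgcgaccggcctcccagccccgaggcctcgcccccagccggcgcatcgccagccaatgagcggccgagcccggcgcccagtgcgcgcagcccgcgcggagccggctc
ELF3, chr1:202010337-202010586, plus strand: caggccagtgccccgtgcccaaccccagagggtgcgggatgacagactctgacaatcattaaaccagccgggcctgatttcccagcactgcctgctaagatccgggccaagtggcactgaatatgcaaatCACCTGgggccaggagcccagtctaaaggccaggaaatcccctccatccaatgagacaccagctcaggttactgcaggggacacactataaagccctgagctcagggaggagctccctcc
EHF, start site 1, chr11:34624007-34624256, plus strand: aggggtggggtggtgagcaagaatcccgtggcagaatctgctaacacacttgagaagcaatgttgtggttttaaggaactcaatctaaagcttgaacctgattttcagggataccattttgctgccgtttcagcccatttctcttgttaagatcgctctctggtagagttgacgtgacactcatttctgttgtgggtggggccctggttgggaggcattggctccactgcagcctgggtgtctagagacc
EHF, start site 2, chr11:34632316-34632565, plus strand: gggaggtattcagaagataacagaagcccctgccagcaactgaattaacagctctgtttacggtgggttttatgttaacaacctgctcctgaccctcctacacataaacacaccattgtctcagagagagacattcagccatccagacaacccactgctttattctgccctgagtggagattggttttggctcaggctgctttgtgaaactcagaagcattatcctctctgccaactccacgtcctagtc
The TFCP2L1 window holds 2 E-boxes, beginning 227 and 113 bases before the start, and the ELF3 window holds 1, beginning 120 bases before it. Neither the GRHL1 window nor either EHF window holds one. Of the 35116 windows of 250 bases in the table, 17.5% hold at least 1 E-box and 2.53% hold 2 or more. The grainyhead motif occurs in 0.117% of them and the ETS motif in 5.69%, and neither occurs in the windows shown. GRHL3, not printed, holds 1 E-box, beginning 21 bases before its first start site. OVOL1, OVOL2, ESRP2, GRHL2 and ESRP1 are named only. Such a match describes the letters of the sequence and is no measured binding site.

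The files give log2 expression for each probe set, normalized by RMA per the submitters' processing notes. The 23 background control probe sets had means of 2.38 to 6.28 over the 6 arrays. A group mean at or below 6.28 is called under the background ceiling, and a fold measured from such a mean is stated as a lower bound, reckoned from the ceiling itself. This rule, which follows an earlier analysis of these data and was chosen with values known, puts the control means of 60.8% of genes under the ceiling. Of the deposited values 4457 exceed 16, the log2 of the largest number a 16-bit scanner can record, so the scale is not that of raw scanner signal. The labels do not say how that scale was set, and folds are on it. Array medians ran from 4.13 to 4.19, arrays of a group correlated at 0.998 to 0.999 and arrays of different groups at 0.984 to 0.986 (Pearson's r computed over genes rather than independent samples). SND1 itself stood at 8.83, 8.60 and 8.80 in the controls and at 5.88, 5.70 and 5.99 in the knockdown arrays, at least 5.51-fold lower (log2 difference -2.89 ± 0.09 SE, adjusted p = 1.29e-06), on a probe set that also covers SND1-IT1. Of 13 measured ovarian carcinoma markers, 12 lay above the background ceiling in the controls and 10 after knockdown, and 6 rose and 6 fell. The share that passed was 92.3%, beside 31.9% of all genes (15.9% higher and 16.1% lower). CDH6, a cadherin gene, fell at least 169-fold, from 13.31, 13.84 and 13.89 to 4.68, 4.89 and 4.64, and MUC16, which encodes the CA125 antigen, fell at least 1.19-fold, from 6.39, 6.52 and 6.69 to 4.53, 4.52 and 4.55. FOLR1, a folate receptor gene, fell 3.50-fold. Among the 6 markers that rose, EPCAM was 7.59-fold and MUC1 2.83-fold higher. PAX8, with group means of 12.30 and 12.37, did not pass the test. Of the keratin genes in the list, KRT7 rose 1.17-fold and KRT19 1.20-fold, whereas KRT8 fell 2.61-fold and KRT18 1.44-fold. WT1 fell by 0.16 log2 units (limma adjusted p = 0.0459) and lay under the ceiling in both groups. Leukocyte markers (9 of 9) and endothelial markers (8 of 8) lay under the ceiling in both groups, their mean levels running from 3.58 to 3.64 in controls and 3.56 to 3.66 in knockdown arrays for leukocytes, and from 3.80 to 3.84 and 3.73 to 3.81 for endothelium. Of 10 fibroblast and mesothelial markers 9 lay under it, COL1A1, DCN and LUM included. The mean level of that list was 4.36 to 4.44 in controls and 4.58 to 4.65 after knockdown. Of the list 2 rose, LUM and UPK3B, and 3 fell (50% passed, beside 31.9% of all genes). LUM went from a group mean of 4.17 to 6.02. UPK3B, a mesothelial surface gene, lay above the ceiling and rose 2.55-fold.

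Of the 10 regulators 5 rose after SND1 knockdown (TFCP2L1, OVOL2, ELF3, GRHL1 and ESRP1), 1 fell (EHF) and 4 did not pass the test (GRHL2, GRHL3, OVOL1 and ESRP2). Over all genes 15.9% rose, 16.1% fell and 31.9% passed in either direction (limma, Benjamini-Hochberg adjusted p under 0.05 over 22466 genes). The median log2 difference was 0.29 over the 10 members and 0.003 over all genes. The groups did not overlap for those 6 members, as for 43.6% of all genes (21.7% with knockdown higher and 21.9% with knockdown lower). All 10 passed into the test, since no filter on low values was applied. With 1 hairpin line and 1 vector line, loss of SND1, other effects of the hairpin and differences between the lines cannot be told apart. In these bulk samples a change in the share of cells expressing a gene and a change in RNA per cell cannot be told apart. The p-values set each group difference only against the scatter of these arrays within a group. That could be technical scatter, as no label describes separate cultures.

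**Figure D1:**
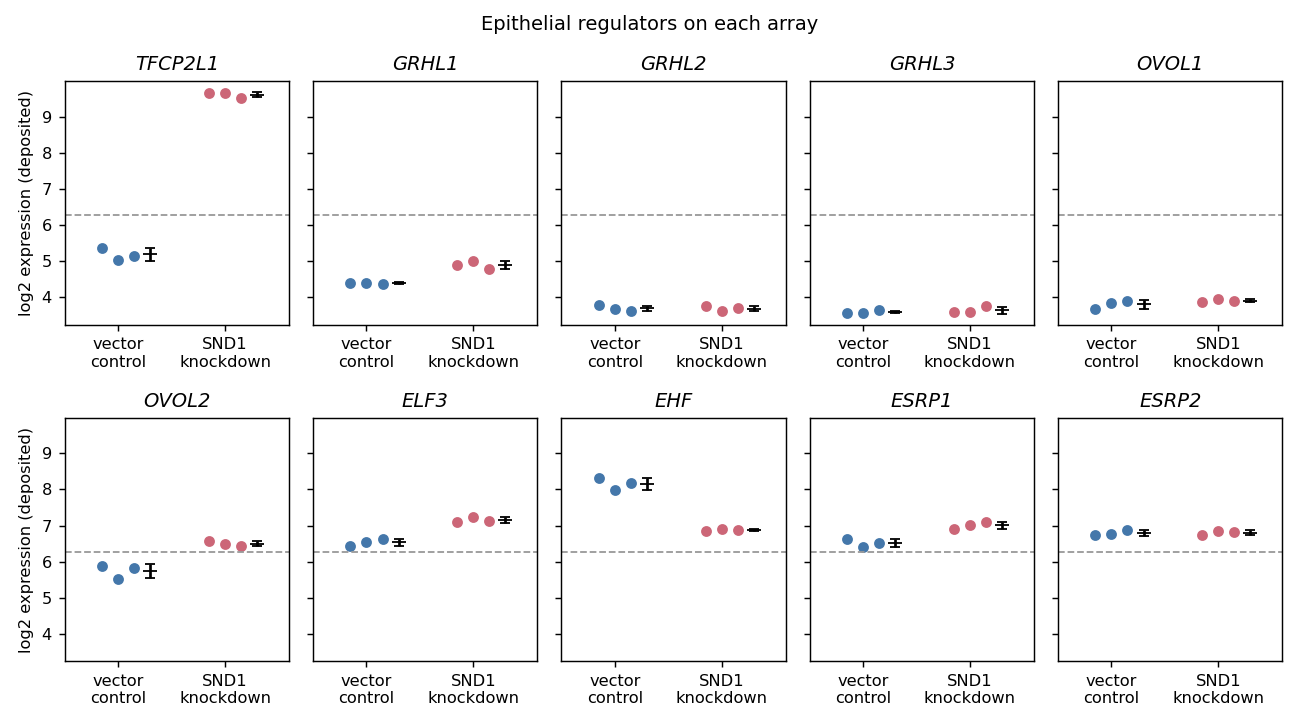
Deposited log2 expression (vertical axis) of each regulator on the 3 vector control arrays (blue) and the 3 SND1 knockdown arrays (red), with group mean and SD in black; the dashed line is the highest background control mean, 6.28. TFCP2L1 rises from below the line to above 9.5, EHF falls towards the line, and GRHL1, GRHL2, GRHL3 and OVOL1 stay below the line in both groups.

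TFCP2L1 showed by far the largest change of the 10. Its log2 level was 5.38, 5.04 and 5.15 in the controls and 9.65, 9.65 and 9.53 in the knockdown arrays. All controls lay under the background ceiling and every knockdown array stood clear of it, with a gap of 4.15 between the highest control and the lowest knockdown array. The rise was at least 10.0-fold (log2 difference 4.42 ± 0.09 SE, 95% interval 4.21 to 4.63, adjusted p = 2.63e-07). The log2 difference is the fitted value from controls under the ceiling.

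Of the 3 grainyhead genes only GRHL1 passed the test, and how the 3 differ from each other was not tested. GRHL1, which acts in epidermal desmosome gene expression and hair anchorage in mice, stood at 4.40, 4.41 and 4.37 in the controls and at 4.90, 5.01 and 4.79 after knockdown. Every knockdown array lay above every control array, yet all 6 were under the background ceiling, so only the log2 difference is given: 0.51 ± 0.06 (SE, 95% interval 0.36 to 0.66, adjusted p = 7e-04). GRHL2, the member best known for maintaining E-cadherin expression in carcinoma lines, was at 3.78, 3.68 and 3.63 in the controls and at 3.75, 3.62 and 3.70 after knockdown. The groups overlapped and the 95% interval of the difference ran from -0.15 to 0.14 (adjusted p = 0.966). GRHL3, needed for epidermal barrier formation in mice, stood at 3.57, 3.58 and 3.64 in the controls and at 3.58, 3.60 and 3.76 after knockdown, with an interval from -0.09 to 0.19 (adjusted p = 0.624). GRHL2 and GRHL3 were under the background ceiling on all arrays, so no fold is given for them. The more distant relatives TFCP2 and UBP1, which are broadly expressed, lay above that ceiling and differed by 0.08 ± 0.05 and -0.04 ± 0.04 (SE; adjusted p = 0.331 and 0.621).

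Of the OVOL genes, OVOL2 was at 5.88, 5.53 and 5.84 in the controls and at 6.58, 6.49 and 6.43 in the knockdown arrays. The controls lay under the background ceiling and the knockdown arrays just above it, without overlap. OVOL2 rose by 0.76 ± 0.10 (SE, 95% interval 0.52 to 0.99, adjusted p = 0.000935) on the log2 scale, a fold of at least 1.17 against the background bound. OVOL1 was at 3.67, 3.85 and 3.91 in the controls and at 3.86, 3.96 and 3.91 after knockdown. Its groups overlapped under the background ceiling, and the interval of the difference ran from -0.07 to 0.27 (adjusted p = 0.358). The third family gene, OVOL3, also under that ceiling, differed by -0.004 ± 0.044 (SE; adjusted p = 0.962).

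The epithelial ETS genes moved in opposite directions. ELF3, known for driving epithelial differentiation and inflammatory genes, stood at 6.43, 6.54 and 6.64 in the controls and at 7.09, 7.25 and 7.14 after knockdown. All 6 arrays were above the background ceiling and the groups were apart, a rise of 1.54-fold (log2 difference 0.62 ± 0.07 SE, 95% interval 0.45 to 0.79, adjusted p = 0.000466). EHF, its close relative, was at 8.32, 7.98 and 8.17 in the controls and at 6.84, 6.92 and 6.88 after knockdown. The lowest control was 1.06 above the highest knockdown array, and EHF fell 2.42-fold (log2 difference -1.28 ± 0.09 SE, 95% interval -1.48 to -1.07, adjusted p = 3.73e-05). Their intervals lie on opposite sides of 0. ELF5 and SPDEF, further epithelial ETS genes, lay under the background ceiling and differed by 0.03 ± 0.10 and -0.03 ± 0.06 (SE; adjusted p = 0.892 and 0.827).

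ESRP1 was at 6.62, 6.41 and 6.53 in the controls and at 6.89, 7.02 and 7.10 in the knockdown arrays. All lay above the background ceiling, the groups did not overlap, and ESRP1 rose 1.40-fold (log2 difference 0.48 ± 0.08 SE, 95% interval 0.30 to 0.66, adjusted p = 0.00242). ESRP2 was at 6.74, 6.77 and 6.88 in the controls and at 6.73, 6.86 and 6.83 after knockdown. Its arrays also stood above the background ceiling, the groups overlapped, and the 95% interval of the difference, -0.13 to 0.15, lay below the whole interval of ESRP1 (adjusted p = 0.936), though the difference between the genes was not itself tested. The values cover whole transcripts, so they hold no measure of the splice forms that these proteins set.

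**Figure D2:**
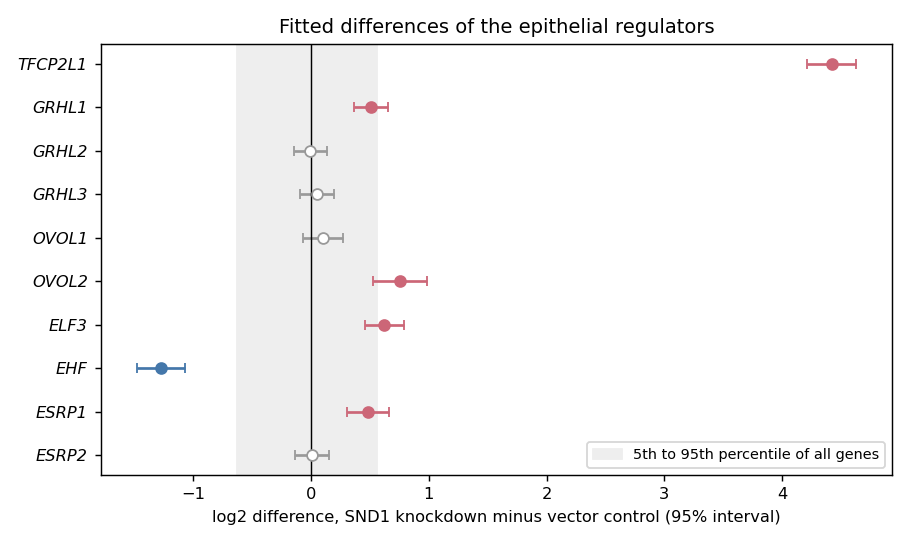
Log2 difference between SND1 knockdown and vector control (horizontal axis) for each regulator, with 95% intervals; filled points passed adjusted p under 0.05 and the grey band spans the 5th to 95th percentile of all genes (-0.63 to 0.56). TFCP2L1, OVOL2 and ELF3 lie above the band, EHF below it, and GRHL1 and ESRP1 lie inside it although they passed the test.

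Genes with the most similar pattern were sought by the root mean square difference between log2 values of the 6 arrays, each gene centred on its own mean. For TFCP2L1 these were KLHL14 (0.12 on the log2 scale), FAM83B (0.17) and GPRIN3 (0.30). KLHL14 and GPRIN3, whose controls lay under the background ceiling, rose at least 5.23-fold and at least 3.61-fold, and FAM83B, above it in both groups, rose 24.9-fold. For EHF they were NDRG1 (0.04), HEY2 (0.06) and PPME1 (0.06). NDRG1 fell 2.55-fold and PPME1 2.45-fold, while HEY2, under the ceiling in both groups, had a log2 difference of -1.32. The likeness to TFCP2L1, and that of HEY2 to EHF, uses array values under the ceiling. With 6 arrays in 2 groups the measure reflects mainly the size of the group difference.

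Most repressors of epithelial genes fell. Of 12 measured genes 10 fell and 0 rose (median log2 difference -0.31, beside 0.003 over all genes). The share that passed was 83.3%, beside 31.9% of all genes, of which 16.1% fell. ZEB1, a zinc finger repressor of ESRP1 and CDH1, stood at 10.00, 10.05 and 9.95 in the controls and at 8.67, 8.76 and 8.79 after knockdown, 2.39-fold lower. SNAI2, another E-box repressor, fell at least 7.07-fold, to 5.79, 6.22 and 5.96 from 8.83, 9.38 and 9.10. TCF3, a helix-loop-helix E-box factor, fell 1.38-fold, and KLF8 fell by 0.67 log2 units under the background ceiling. Of the 12, 8 lay under that ceiling in both groups, and the count of 10 was 6 when control array 1 or knockdown array 3 was left out. Precursors of the miR-200 family, which act against ZEB1 and ZEB2, were all under it: 5 were measured, 0 passed the test, and MIR200C stood at 3.12, 3.42 and 3.34 in the controls and at 3.41, 3.39 and 3.47 after knockdown (adjusted p = 0.29). These probe sets report precursor or host RNA, not the mature microRNA.

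Among 33 measured epithelial genes that grainyhead or OVOL factors are known to regulate or to be expressed with, 26 rose and 3 fell (median log2 difference 0.53). The share that passed was 87.9%, beside 31.9% of all genes, of which 15.9% rose. Of the 33, 13 lay under the background ceiling in both groups, genes that rose among them. CDH1, encoding E-cadherin, rose 7.22-fold, EPCAM, an epithelial adhesion molecule, 7.59-fold, GRB7, a receptor kinase adaptor gene, 7.68-fold, and MARVELD2, encoding the tricellular junction protein tricellulin, 2.23-fold. Further genes, chosen after their values were seen, were OCLN, the occludin gene (2.27-fold higher), LSR, encoding the tricellular junction protein angulin-1 (2.10-fold higher), JUP, the plakoglobin gene (2.09-fold higher), and LLGL2, a polarity gene (1.86-fold higher). The 3 that fell, also named after their values were seen, were TMEM54 (at least 1.91-fold), AP1M2 (by 0.24 log2 units) and TGM1 (by 0.28), the last pair under the background ceiling. Among genes that did not pass, RAB25, a small GTPase gene of polarised epithelia, differed by 0.09 ± 0.06 (SE, adjusted p = 0.374) and ERBB3 by 0.11 ± 0.05 (SE, adjusted p = 0.127), both under the background ceiling. Many members of this list are epithelial junction genes for which a rise is already known from an earlier analysis of these arrays, so the count is no independent observation.

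**Figure D3:**
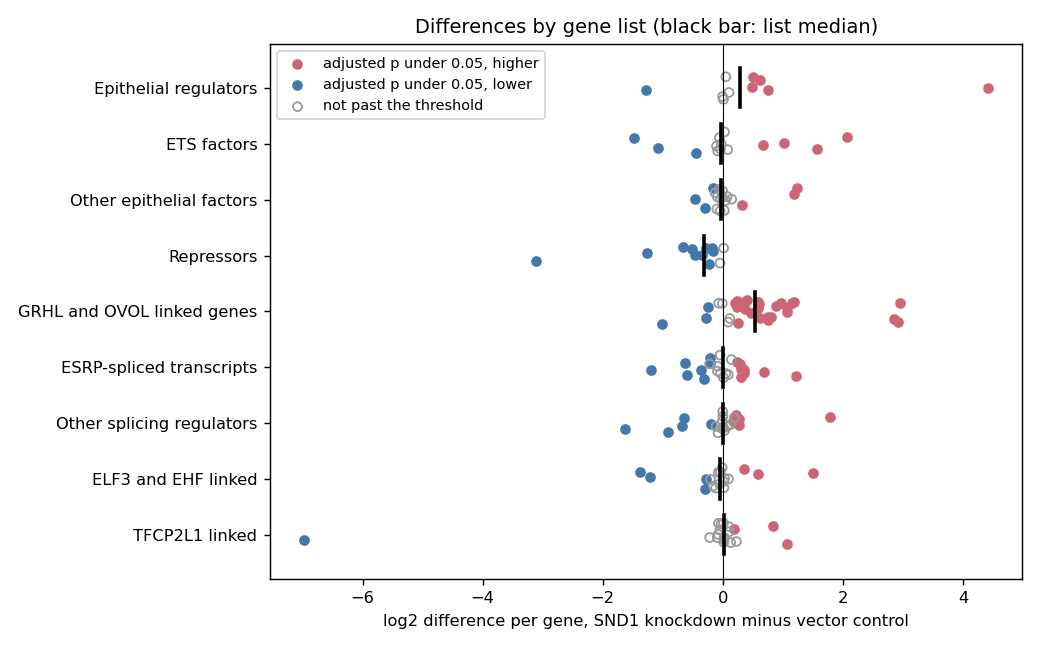
Log2 difference of each measured gene (horizontal axis) in the list of 10 regulators and in 8 further lists, with the list median as a black bar and filled points for adjusted p under 0.05. Repressors lie to the left (median -0.31) and genes linked to grainyhead and OVOL factors to the right (median 0.53), while the medians of ETS factors, splicing regulators and ESRP-spliced transcripts lie within 0.05 of 0.

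In the wider ETS family, 4 of 14 measured genes rose and 3 fell (median -0.03), so that 50% passed, beside 31.9% of all genes. ETS1, a factor of mesenchymal and lymphoid cells, fell 2.77-fold, from 9.57, 9.78 and 9.79 to 8.26, 8.26 and 8.21, and ELF1, a broadly expressed ETS gene, rose 2.03-fold, from 11.84, 11.87 and 11.91 to 12.84, 12.91 and 12.94. ETV4, an ETS gene downstream of growth factor signalling, rose at least 2.15-fold, and FLI1, an ETS gene of blood and endothelial cells, fell by 1.07 log2 units under the background ceiling.

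Of 18 other epithelial and Müllerian transcription factor genes 3 rose and 3 fell (median -0.03). That share, 33.3%, was close to the 31.9% of all genes. Of the 18, 12 lay under the background ceiling in both groups, all 3 that fell among them. PPARG, a nuclear receptor gene, rose 2.36-fold, from 7.38, 7.38 and 7.36 to 8.61, 8.58 and 8.65. MECOM, a zinc finger gene of the Müllerian epithelium, rose 2.28-fold and KLF5, a Krüppel-like factor gene of epithelia, 1.25-fold, whereas FOXA2 fell by 0.47 log2 units under the background ceiling. The count of 3 lower genes was 1 without control array 1 or control array 3. The Müllerian factor genes PAX8 and SOX17 did not pass the test, with differences of 0.07 ± 0.04 and -0.004 ± 0.094 (SE; adjusted p = 0.286 and 0.985).

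Of 22 other measured regulators of splicing in epithelial-mesenchymal transition 5 rose, 5 fell and 12 did not pass the test (median -0.001). The share that passed was 45.5%, beside 31.9% of all genes. RBM47, an RNA-binding protein gene of epithelial cells, stood at 8.52, 8.23 and 8.49 in the controls and at 10.17, 10.26 and 10.17 after knockdown, 3.44-fold higher (log2 difference 1.78 ± 0.08 SE, adjusted p = 7.49e-06). RBFOX2, which promotes mesenchymal splice forms, was at 10.81, 10.75 and 10.84 in the controls and at 9.16, 9.19 and 9.17 after knockdown, 3.09-fold lower (log2 difference -1.63 ± 0.05 SE, adjusted p = 8.84e-07). QKI, another regulator of mesenchymal splice forms, fell 1.56-fold, and MBNL2, a muscleblind gene, fell 1.88-fold. For these 4 genes no knockdown array overlapped the controls, as for 43.6% of all genes. They were picked by lowest adjusted p, so the lack of overlap is no further observation. The count of 5 higher genes was 3 without control array 2, control array 3 or knockdown array 2.

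**Figure D4:**
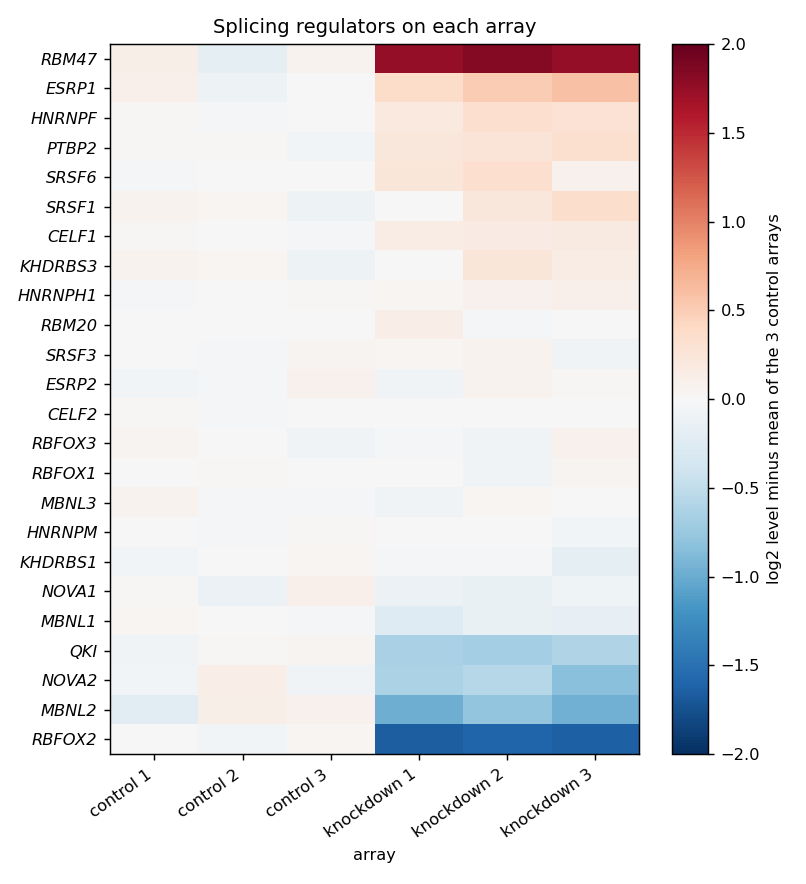
Log2 level of ESRP1, ESRP2 and 22 further splicing regulators on each array, minus the mean of the 3 controls (colour scale from -2 to 2), ordered by the fitted difference. RBM47 and ESRP1 head the genes that were higher on all 3 knockdown arrays, RBFOX2, MBNL2, NOVA2 and QKI were lower on all 3, and ESRP2 stays near 0.

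Of 25 measured transcripts that carry exons regulated by ESRP proteins 9 rose and 7 fell (median 0.01; 64% passed, beside 31.9% of all genes). EPB41L5, a FERM domain gene of cell polarity, rose 2.32-fold, NF2, encoding the tumour suppressor merlin, fell 2.30-fold, and KIF13A, a kinesin gene, fell 1.55-fold. FGFR3 rose by 0.68 log2 units under the background ceiling. FGFR2 and CD44, whose exon choice is a standard readout of ESRP activity and which are added here after their values were seen, changed as whole transcripts: FGFR2 fell by 0.37 under the background ceiling and CD44 rose 1.23-fold.

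Genes linked to ELF3 and EHF numbered 3 higher and 4 lower of 18 measured (median -0.05). The share that passed was 38.9%, beside 31.9% of all genes, and 13 of the 18 lay under the background ceiling in both groups. KRT8, a keratin gene, fell 2.61-fold and MUC1, a membrane mucin gene, rose 2.83-fold. TGFBR2, encoding a TGF-beta receptor subunit that ELF3 can activate, fell 2.31-fold from 11.22, 10.99 and 10.96 to 9.86, 9.94 and 9.75, and MET, encoding the hepatocyte growth factor receptor, rose 1.28-fold. Genes linked to TFCP2L1 in naive pluripotent cells and collecting ducts numbered 3 higher and 1 lower of 18 (median 0.02). Their share that passed was 22.2%, and 14 of the 18 lay under the background ceiling in both groups. JAG1, a Notch ligand gene, rose 1.79-fold and CA2, a carbonic anhydrase gene of intercalated cells, at least 1.47-fold, while KIT, a receptor kinase gene, fell at least 23.7-fold. NANOG rose by 0.18 log2 units under the background ceiling (adjusted p = 0.0388), a call that ended without control array 1, 2 or 3 or without knockdown array 1 or 3 (adjusted p from 0.0724 to 0.126, and from 0.0236 to 0.126 over all alternatives that tested it). The count of 1 lower gene was 2 without control array 3. The vacuolar pump gene ATP6V1B1 and the water channel genes AQP2 and AQP3 did not pass the test (adjusted p = 0.0955, 0.827 and 0.274).

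The nearest measured genes along the chromosome, in the RefSeq order, were compared with each regulator. Among the 20 nearest of TFCP2L1, 7 rose and 1 fell (median -0.01, range -1.16 to 2.23), beside 15.9% and 16.1% of all genes. GLI2, a Hedgehog transcription factor gene and the nearest on the side before it, fell by 1.16 to a mean under the background ceiling, and CLASP1, the nearest after it, rose by 0.18, against 4.42 for TFCP2L1. Further before TFCP2L1, TMEM37 rose by 2.23 from a mean under that ceiling, and EPB41L5 rose by 1.21. Among the 20 nearest of EHF, 4 rose and 4 fell (median -0.002). ELF5, the nearest before it, did not pass, CAT, the catalase gene, rose by 1.26 and KIAA1549L fell by 2.74 to a mean under that ceiling. Around ESRP1, 6 of 20 rose and 3 fell (median 0.06), and the nearest genes after it, DPY19L4 and INTS8, rose by 0.54 and 0.41, close in size to the 0.48 of ESRP1. Their part in the ESRP1 value was not tested. CDH1 lies 8 measured genes after ESRP2 and rose by 2.85, whereas ESRP2 did not pass the test. The medians of the 20 nearest genes ran from -0.08 (OVOL1) to 0.11 (OVOL2) over the 10 regulators. Except CDH1 and EPB41L5, the genes compared above with their neighbouring regulators were named after their values were seen. The direct neighbours fixed by rule, STPG1 beside GRHL3, AP5B1 beside OVOL1 and LINC02894 beside ESRP1, did not pass (adjusted p = 0.0875, 0.564 and 0.89).

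**Figure D5:**
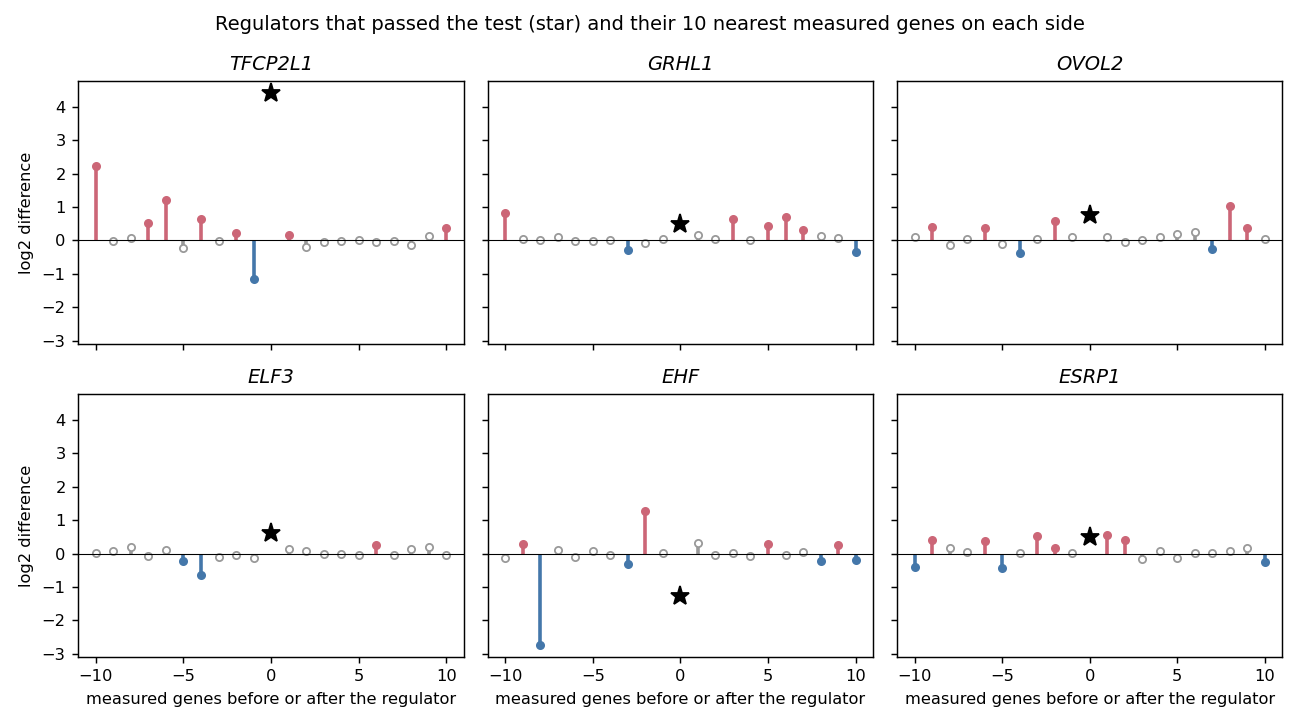
Log2 difference (vertical axis) of the 10 nearest measured genes before and after each regulator that passed the test, by gene order (horizontal axis); filled points passed adjusted p under 0.05 and the star is the regulator. TFCP2L1 stands at 4.42 between GLI2 at -1.16 and CLASP1 at 0.18, and ESRP1 at 0.48 beside DPY19L4 at 0.54. TMEM37, further before TFCP2L1, stands at 2.23.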

How the data were processed

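Expression was measured on 6 single-colour arrays, 3 of vector control and 3 of SND1 knockdown SKOV3 cells, grouped by title. The deposited files hold log2 expression for each probe set, which the authors made with RMA (background correction, quantile normalization and summary of probes; version not given), per the submitters' processing notes. They were used as deposited; scanner files were not used here. Of 70523 probe sets, 23781 carried 1 symbol in the platform annotation, 1543 several and 45199 none. Entrez identifiers of 21497 matched the RefSeq table. Probe sets with several symbols were left out, save that of SND1. For genes with several probe sets the brightest over 6 arrays was taken.

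Group differences came from limma 3.58.1 (lmFit, eBayes; R 4.3.3), with no filter or covariate. The Benjamini-Hochberg adjustment ran over 22466 genes at 0.05. The fitting steps were run on simulated data with fewer changed genes than here and independent noise, as a check of the code only. No set test was run: lists are described by counts and medians. The 15 lists hold 232 genes, 200 measured; a list of noncoding neighbours had none. The members and lists were chosen with earlier results of these data known. Named genes are the members, SND1, up to 4 per list that passed the threshold with the lowest adjusted p, the 3 closest profiles of the members that changed most, and direct neighbours; all other genes whose values are given were chosen after their values were seen. Besides those marked so in the text, these are TFCP2, UBP1, OVOL3, ELF5, SPDEF, RAB25, ERBB3, PAX8, SOX17, KRT7, KRT18, KRT19, WT1, DCN, NOVA2, MIR200C, ATP6V1B1, AQP2 and AQP3. From the marker lists, the rule for named genes also gives KDR, POSTN and COL1A1 (lower under the background ceiling) and LUM (higher under it). Promoter windows and their build are those of RefSeq. Alternatives were other normalizations, a filter on dim genes, other probe set rules, other variance settings, array weights, a replicate block and leaving out each array. The number of arrays limits the precision.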

Additional observations from a re-analysis of the deposited data

How the results depend on the processing

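Under 14 alternatives the counts of regulators that rose (5) and fell (1) were the same, and each of the 6 kept its direction and its side of the threshold: TFCP2L1 in a range of 4.35 to 4.51, GRHL1 0.46 to 0.56, OVOL2 0.65 to 0.82, ELF3 0.57 to 0.67, EHF -1.37 to -1.20 and ESRP1 0.43 to 0.54 on the log2 scale, with adjusted p at most 0.0116. GRHL2, GRHL3 and OVOL1 passed in none of the 13 alternatives that tested them (the filter on dim genes removed them), and ESRP2 in none of 14. Leaving out each array in turn gave 2908 to 3507 higher and 2955 to 3385 lower genes overall. The fold bounds depend on the background level: with the median of the background controls in place of the highest, TFCP2L1 would be 21.4-fold and OVOL2 1.69-fold higher. Same-numbered arrays showed no shared deviation (correlations of -0.02, -0.04 and -0.06 across genes). These values cannot decide whether such arrays were handled together, which the labels do not say. With the replicate number as a block, 3094 genes rose and 3137 fell, and the regulators numbered 5 and 1. In that fit NANOG lost its call (limma adjusted p = 0.0925), and the splicing regulators that rose numbered 3 rather than 5. The filter on dim genes lowered the endothelial count of lower genes from 1 to 0 and the fibroblast and mesothelial one from 3 to 1. Signal close to background limits what GRHL1, GRHL2, GRHL3 and OVOL1 can show.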
